A study of Mus musculus with 4 samples.

Results

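Polyamine metabolism was described through 10 genes of the 50600 listed in the count tables: the synthesis enzymes Odc1, Amd1, Srm and Sms, the regulators Oaz1, Oaz2 and Azin1, and the catabolic enzymes Sat1, Smox and Paox. The members were named by symbol as genes of the pathway, with no threshold on their values. All 10 were found through the stem of their gene identifier. The samples were 4 RNA-seq libraries of primary mouse Th17 cells, the CD4 T cells that make IL-17, of strain C57BL/6NJ. They carry biological replicate numbers 1 to 4 and share a donor label, while sex and age are not given, and no genetic change or treatment is named for them. The linked protocol differentiates CD4 T cells in culture, and the linked library protocol names poly(A) selection although the assay is called total RNA-seq. There is 1 group and nothing to contrast it with, so genes were compared within libraries and each gene was compared across libraries. The labels do not say whether the libraries came from separate animals or cultures, so p-values and SDs measure the spread between these libraries, part of which may be technical.

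Polyamines are small, positively charged molecules that bind RNA and DNA and that proliferating cells need in quantity. Ornithine decarboxylase, encoded by Odc1, makes putrescine from ornithine. S-adenosylmethionine decarboxylase (Amd1) supplies the aminopropyl groups with which spermidine synthase (Srm) makes spermidine and spermine synthase (Sms) makes spermine. Antizymes (Oaz1, Oaz2) bind ornithine decarboxylase and send it to the proteasome, and the antizyme inhibitor (Azin1), a relative of the decarboxylase without its activity, takes antizyme away from it. Spermidine/spermine acetyltransferase (Sat1) and the oxidases Smox and Paox run the pathway backwards. Activated T cells are known to raise polyamine synthesis, and in Th17 cells the pathway has been linked to lineage fidelity. Transcript levels do not give enzyme activity here, since antizyme translation and enzyme turnover respond to polyamines after transcription.

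The site at which antizyme translation is controlled can be seen in the sequence of both antizyme transcripts. Translation of antizyme needs the ribosome to skip a base at the end of a short first reading frame, which polyamines promote. The stretches below run 5′ to 3′ on the sense strand and come from GENCODE M21 transcripts. The capitals mark the last codon of the first frame and its stop codon, whose T is the skipped base. They are shown because the counted Oaz1 and Oaz2 fragments do not tell whether the full protein was made.

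Oaz1 frameshift site: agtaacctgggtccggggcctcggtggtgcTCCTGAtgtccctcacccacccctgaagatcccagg

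Oaz2 frameshift site: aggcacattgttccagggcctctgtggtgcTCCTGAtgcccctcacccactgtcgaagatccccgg

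The skipped T lies at position 80828295 of chromosome 10 for Oaz1 and at position 65686272 of chromosome 9 for Oaz2 (mm10, plus strand). In the annotated coding sequences 68 of 227 codons precede it in Oaz1 and 32 of 189 in Oaz2. The capitals are the same in both genes. Over the 517 bases that could be aligned, the coding sequences of Oaz1 and Oaz2 were 69.4% identical. Those of Odc1 and its catalytically inactive relative Azin1 were 67.4% identical over 1263 bases.

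Other genes carry nearly the same sequence as some members, which bears on the levels of those members, because fragments that mapped to several places were not counted. Of the 100-base windows along the longest coding transcript, Amd1 shared 76.4% with transcripts of other genes, Oaz1 49.8%, Sms 27.7%, Paox 25.4% and Odc1 19.6%. Azin1 shared 5.45%, Oaz2 3.32% and Sat1 0.376%, and Srm and Smox shared 0. Windows were matched on either strand, and a gene that overlaps a member at its own place counts as sharing too. A fragment from such an overlap can still map to a single place, so these shares can overstate what was lost. Amd2, a protein-coding gene on chromosome 10, held 73.2% of the windows of Amd1, and the processed pseudogene Oaz1-ps on chromosome 17 held all of those shared by Oaz1. The following coding stretches show how close these copies are, with the base that differs in capitals (GENCODE M21 transcripts, 5′ to 3′).

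Amd1: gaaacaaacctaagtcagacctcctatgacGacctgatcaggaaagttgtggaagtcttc

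Amd2: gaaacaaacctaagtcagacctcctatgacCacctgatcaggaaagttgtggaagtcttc

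Oaz1: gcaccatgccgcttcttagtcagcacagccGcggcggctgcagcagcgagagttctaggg

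Oaz1-ps: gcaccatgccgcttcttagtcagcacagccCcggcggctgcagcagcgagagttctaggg

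In each pair the marked base is the only difference over the aligned coding sequence, 1 of 1002 bases between Amd1 and Amd2 and 1 of 678 between Oaz1 and Oaz1-ps. The processed pseudogene Sms-ps on chromosome X was identical to Sms over all 1098 coding bases. A fragment that lies within such a stretch maps equally well to both genes unless it covers a difference. Of the counts that were assigned, Amd2 had 31, 38, 57 and 34 counts in replicates 1 to 4, Oaz1-ps 81, 122, 213 and 175, and Sms-ps 172, 235, 472 and 345. As a percentage of the member's own counts this was 0.767% to 1.03% for Amd2, 1.52% to 2.19% for Oaz1-ps and 9.30% to 12.96% for Sms-ps. These are counts that survived the same rule, so the number lost was not measured for member or copy.

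Levels are given in TPM, which divides a count by the exon length of the gene in bases and scales all genes of a library to the same total. All 10 members reached 1 TPM in each library, against 47.0% of protein-coding genes, and 8 of 10 reached 30 TPM in each, against 23.4%. The median of the members' mean levels was 100.1 TPM, and that of protein-coding genes whose mean level reached 0.1 TPM was 21.6. The members took between 0.295% and 0.299% of all counts in each library.

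Synthesis held most of the transcripts. The 4 synthesis genes summed to 3117 ± 33.4 TPM (SD, n = 4), which was 83.1% of the TPM of the 10 members, the 3 regulators to 451 ± 11.98 TPM (12.03%) and the 3 catabolic genes to 181 ± 6.25 TPM (4.83%). Odc1 alone made up 58.5% ± 0.821 of the members' TPM.

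Odc1 (ENSMUSG00000011179.7, chr12:17544873-17551502, plus strand, mm10), the first enzyme of the pathway, was at 2200.3, 2152, 2244 and 2170.2 TPM in replicates 1 to 4. The 4 libraries lay close together, at a mean of 2192 ± 40.3 TPM. This ranked 34 among the 10223 protein-coding genes that reached 1 TPM in each library, called detected here, and it rested on 47829 to 99946 counts. Its highest CPM was 1.05 times its lowest. Odc1 shares windows with 9 other genes, mostly processed pseudogenes, of which Gm17709 holds the most (7.92%).

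Srm (chr4:148591503-148594993, plus strand), which makes spermidine, was at 776, 788, 778 and 823 TPM. Replicate 4 was the highest and the other replicates lay within a narrow range, with a mean of 791 ± 21.6 TPM and rank 155. Srm stood at 0.361 of Odc1, lower in 4 of 4 libraries. Sms (chrX:157443855-157492287, minus strand), which adds the next aminopropyl group to make spermine, was at 36.1, 34.3, 34.7 and 35.4 TPM, a mean of 35.1 ± 0.806 and rank 4786. The transcript for spermidine synthesis was thus 22.6-fold above that for spermine synthesis in the mean of 4 libraries (log2 ratio 4.49 ± 0.05). With the longest coding transcript as the length it was 16.7-fold above, and with the windows that Sms shares left out as well 12.1-fold.

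Amd1 (chr10:40287458-40302186, minus strand), the decarboxylase that feeds both aminopropyl steps, was at 99.97, 100.1, 97.7 and 96.7 TPM. The libraries hardly differed, with a mean of 98.6 ± 1.69 TPM and rank 2054. By this measure Odc1 was 22.2-fold above Amd1 (log2 ratio 4.47 ± 0.04, higher in 4 of 4 libraries). Of the members, Amd1 shares the most sequence with other genes. With the longest coding transcript as its length and the shared windows taken out of that length, Amd1 was at 336 TPM and the ratio of Odc1 to it was 6.80. That calculation treats shared windows as if they gave no counted fragment at all, and it was chosen after the data were seen.

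**Figure D1:**
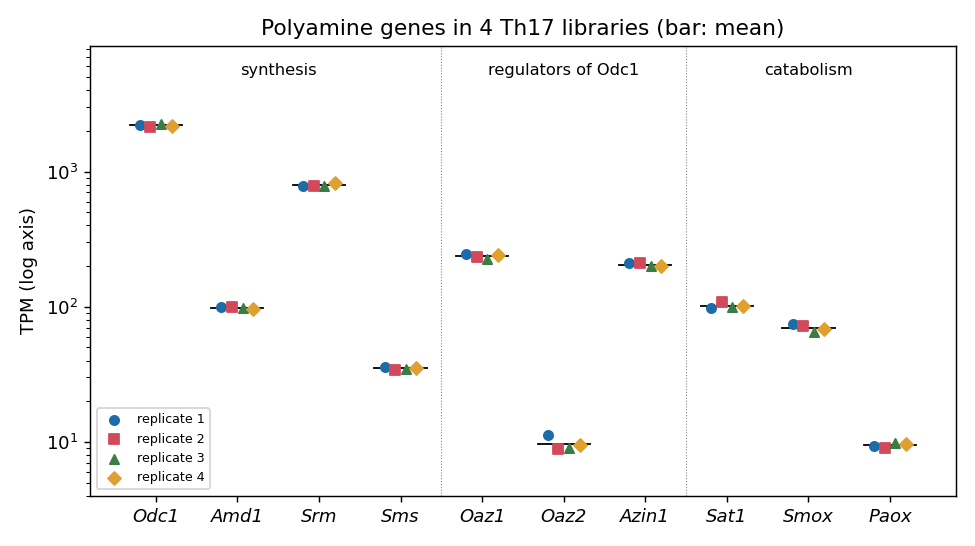
TPM (log axis) of the 10 genes of polyamine metabolism in the 4 Th17 libraries, grouped by role, with a point for each replicate and a bar for the mean. Odc1 lies at 2192 TPM and Srm at 791, and Oaz2 and Paox lie lowest, at 9.68 and 9.45. For every gene the spread between libraries is small beside the distance from Odc1.

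Among the regulators, Oaz1 (chr10:80826656-80829290, plus strand), the most widely expressed antizyme, was at 245, 231, 227 and 242 TPM. Replicates 1 and 4 were a little above replicates 2 and 3, and the mean was 236 ± 8.61 TPM, rank 729. Azin1 (chr15:38487430-38519266, minus strand), which counters antizyme, was at 209, 211, 200.4 and 200.4 TPM, a mean of 205 ± 5.53 and rank 870. Its range did not overlap that of Oaz1, and the ratio of Azin1 to Oaz1 was 0.869 ± 0.0354 (log2 ratio -0.20 ± 0.06), below 1 in 4 of 4 libraries. Without division by length this pair turned round: as CPM, counts scaled to the library total, Azin1 was above Oaz1 by a log2 ratio of 1.08. With the longest coding transcript as the length the ratio was instead lower, at 0.466, and with shared windows left out as well 0.247.

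Oaz2 (chr9:65668001-65690300, plus strand), the second antizyme, was at 11.2, 8.88, 9.09 and 9.51 TPM. Replicate 1 was the highest and the mean was 9.68 ± 1.08 TPM, rank 7964. Of all members Oaz2 had the widest relative spread, a coefficient of variation of 11.1%, and the lowest counts, 287, 294, 475 and 368. At the lowest of these, counting error alone gives 5.90%. Oaz1 exceeded Oaz2 24.6-fold (log2 ratio 4.60 ± 0.11, 4 of 4 libraries), 36.2-fold with the longest coding transcript as the length and 69.6-fold with shared windows left out as well.

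Antizyme transcripts were fewer than those of their target. Odc1 exceeded Oaz1 by a log2 ratio of 3.21 ± 0.07, or 9.29-fold ± 0.435, and exceeded Azin1 by 3.42 ± 0.06, or 10.7-fold. Oaz1 and Oaz2 together came to 0.112 of Odc1. The direction held in 4 of 4 libraries for each, but the size depended on the length used for Oaz1. The exon union of Oaz1 is 2558 bases and its longest coding transcript 1071. With the latter, Odc1 was 4.49-fold above Oaz1, and with shared windows also left out it was 2.80-fold above.

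In catabolism, Sat1 (chrX:155213132-155216449, minus strand), which acetylates spermidine and spermine and so marks them for export or oxidation, was at 97.7, 108, 99.9 and 101 TPM. Replicate 2 was the highest, and the mean was 102 ± 4.61 TPM, rank 2008. Smox (chr2:131491496-131525922, plus strand), which oxidises spermine directly to spermidine, was at 74.8, 71.9, 64.8 and 68.0 TPM, a mean of 69.9 ± 4.39 and rank 2855. Its range and that of Sat1 did not overlap, and Sat1 was 1.46-fold above Smox (log2 ratio 0.54 ± 0.11, 4 of 4 libraries). As CPM the ranges overlapped, and Sat1 was above Smox in 3 of 4 libraries with a mean ratio of 1.04. With the longest coding transcript as the length Sat1 was 2.06-fold above Smox, and 2.06-fold with shared windows left out as well. Paox (chr7:140115799-140137224, plus strand), the oxidase of acetylated polyamines, was at 9.38, 9.01, 9.80 and 9.61 TPM, a mean of 9.45 ± 0.338 and rank 8019, from 393 to 841 counts.

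Along the acetylation route the acetyltransferase transcript thus lay well above that of the oxidase, with Sat1 10.8-fold above Paox (log2 ratio 3.41 ± 0.11). Smox was 7.41-fold above Paox (2.87 ± 0.13). With the longest coding transcript as the length these became 24.4-fold and 11.9-fold, and with shared windows left out as well 18.3-fold and 8.88-fold. Sat1 was at 0.0464 of Odc1, and with the longest coding transcript as the length (1162 bases in place of an exon union of 2774) it was at 0.0960, or 0.0775 with shared windows left out as well. The 4 synthesis genes together exceeded the 3 catabolic genes 17.2-fold (log2 ratio 4.11 ± 0.06). The excess was 9.82-fold with the longest coding transcript and 12.4-fold with shared windows left out as well.

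Each of the 13 fixed pairs or sums had the same direction in 4 of 4 libraries. The exact two-sided sign-flip permutation test gave p = 0.125 for each, and 0.125 after Benjamini-Hochberg adjustment over the 13. That is the smallest p that 4 libraries allow, so no pair could pass 0.05. As CPM, which leaves out length, Srm was 6.00-fold above Sms and at 0.227 of Odc1, Odc1 was 4.37-fold above Azin1, and Sat1 was 6.09-fold above Paox.

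**Figure D2:**
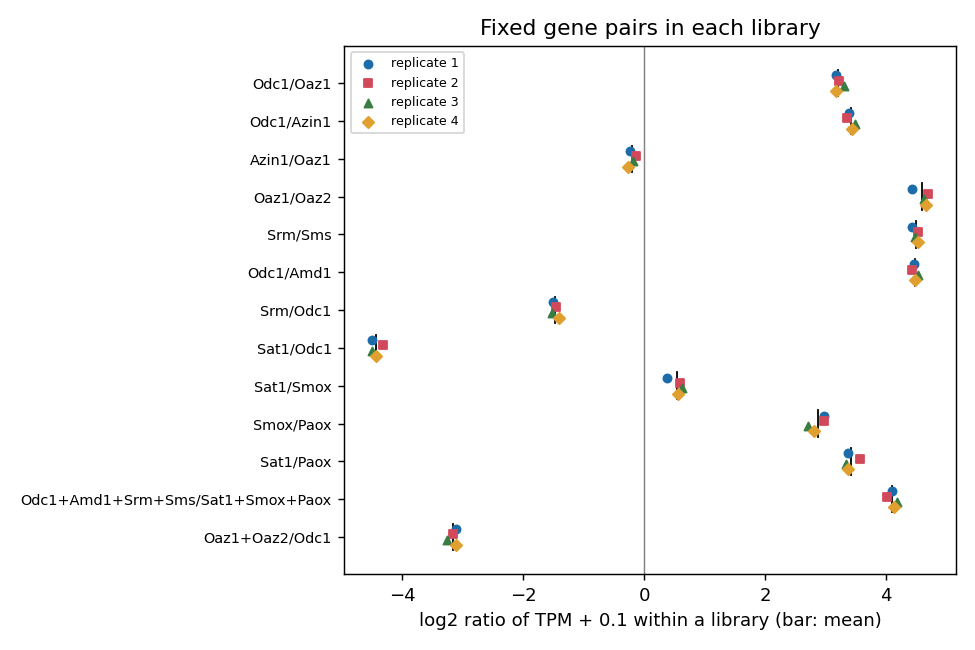
Log2 ratio of TPM + 0.1 within each library for the 13 fixed pairs and sums, with a point for each replicate, a bar for the mean and a grey line at equal levels. Every pair lies on a single side of the line in all 4 libraries, and Azin1/Oaz1 lies nearest to it, at a mean of -0.20.

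From the highest level to the lowest the order was Odc1, Srm, Oaz1, Azin1, Sat1, Amd1, Smox, Sms, Oaz2 and Paox. Of the 9 pairs of neighbours in this order, 7 had ranges over the 4 libraries that did not overlap. Sat1 and Amd1 overlapped, and Sat1 was the higher in 3 of 4 libraries. Oaz2 and Paox overlapped too, with Oaz2 the higher in 1 of 4, so neither of these pairs can be ordered.

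The middle of the order moved with the length that counts were divided by. With the longest coding transcript, the levels of Oaz1 and Sat1 were each 1.74 times as high, at 410 and 176 TPM, and the ranges of Azin1 and Sat1 overlapped, as did those of Smox and Amd1. With shared windows left out as well, the order was Odc1, Oaz1, Srm, Amd1, Azin1, Sat1, Smox, Sms, Oaz2 and Paox. Oaz1 then stood at 817 TPM above Srm at 688, and Sms at 57.1 TPM. Odc1 was the highest and Oaz2 and Paox the lowest pair under all 3 lengths. For all detected protein-coding genes, the longest coding transcript moved the median level by a log2 value of -0.15.

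**Figure D3:**
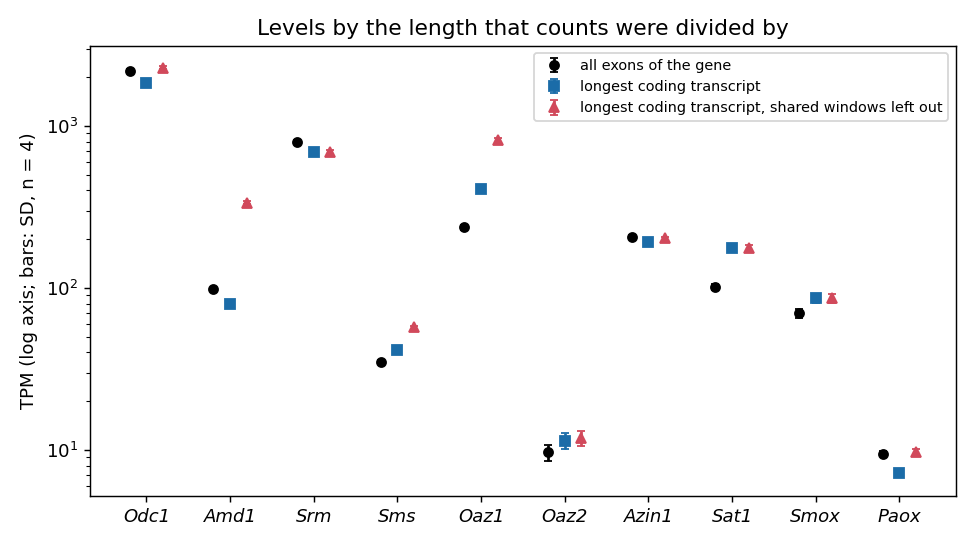
Mean TPM (log axis; bars are the SD of 4 libraries) of the 10 genes with counts divided by the exon union (black circles), the longest coding transcript (blue squares) or that transcript without windows shared with other genes (red triangles). Amd1 moves from 98.6 to 336 TPM and Oaz1 from 236 to 817 between the first and the last. Odc1, Azin1 and Paox end at 1.04, 0.984 and 1.03 times their first level.

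The next question was whether any member differed between the replicates by more than counting noise. By the Poisson deviance of its counts (edgeR scaling, Benjamini-Hochberg adjusted p under 0.05 and a highest CPM of at least 2 times the lowest), 0 of 10 members were called, against 1.74% of the 12434 genes tested. The ratio of the highest to the lowest CPM ran from 1.03 for Amd1 to 1.25 for Oaz2. Without the 2-fold requirement the Poisson test called 6 of 10 members (Odc1, Srm, Oaz1, Azin1, Sat1 and Smox), against 36.6% of all genes. These shares cannot be set side by side directly, since the genes were not matched in abundance and higher counts let this test call smaller ratios. Of the members 7 had an unadjusted Poisson p under 0.05, against 5778 of the 12434 genes tested. For Odc1 the adjusted p was 2.04e-20 with edgeR's scaling at a highest-to-lowest ratio of 1.05.

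The members were then set against the spread of other genes of their abundance. The negative binomial deviance at edgeR's trended dispersion called 0 of 10 members, against 0.523% of all genes. With so few calls over all genes, 0 of 10 does not set the members apart. By the same test 0 of 10 had an unadjusted p under 0.05, against 557 of the 12434 genes tested. DESeq2's fitted dispersion also called 0 of 10, against 69 of the 12434 genes tested. The lowest unadjusted p was 0.122, for Smox, whose adjusted p with edgeR was 1.00. The median SD of log2 CPM was 0.05 for the members and 0.07 for all genes tested, which were not matched to the members in abundance. Smox was highest in replicate 1 and lowest in replicate 3, Sat1 was lowest in replicate 1 and highest in replicate 2, and Oaz2 was highest in replicate 1 and lowest in replicate 2.

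**Figure D4:**
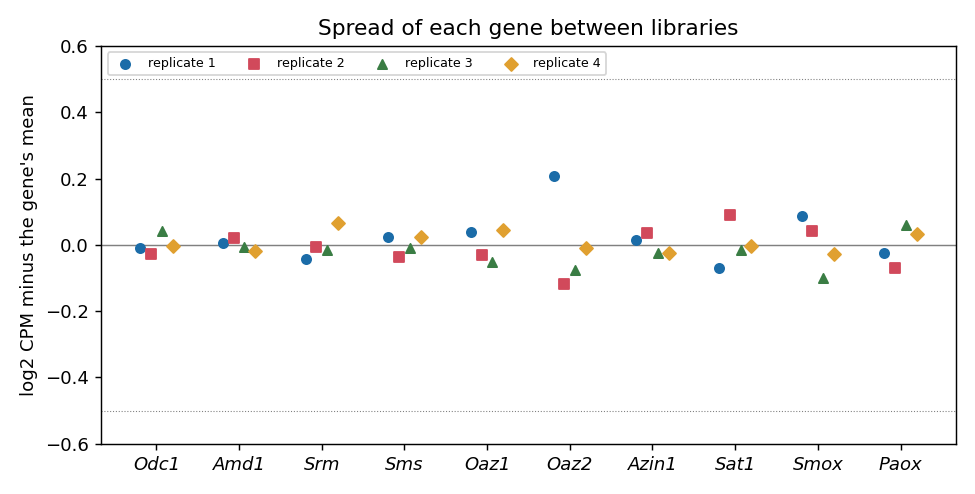
Log2 CPM of each gene minus its mean over the 4 libraries, with a point for each replicate and dotted lines at 0.5 above and below 0. All points of the 10 genes lie between the dotted lines, and the widest is Oaz2 in replicate 1, at 0.21 above its mean.

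Sat1 and Sms are on chromosome X, and the libraries differ in sex-linked transcripts. Xist, the RNA that silences an X chromosome, was at 132, 131, 0.329 and 0.496 TPM in replicates 1 to 4. The Y-linked genes Eif2s3y (0.282, 0.239, 65.5 and 58.4 TPM) and Ddx3y (0.428, 0.347, 58.9 and 57.3 TPM) ran the other way. The Sat1 levels given above put replicates 1 and 2 at the ends of its range, and those of Sms put them at the ends of its range as well, so neither gene divided the libraries as Xist did. Of the other members, Amd1, Azin1 and Smox were higher in both of replicates 1 and 2 than in replicates 3 and 4, and Paox was lower in both. The share of all genes that divide the libraries in this way was not computed, so these members cannot be called unusual. Whether these shifts go with the sex-linked difference was not tested. The replicates share a donor label, but Xist was high in 2 libraries and Y-linked genes were high in the other 2. That label therefore cannot be read as a single animal, and the SDs over the 4 libraries span both patterns. Sms-ps, its pseudogene, is also on chromosome X.

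The other genes of the pathway were described by 6 lists from textbook knowledge. Of 49 genes, 30 reached 1 TPM in each library. The share over all protein-coding genes, 47.0%, is the level against which this and the counts for each list are to be read, and those for arginine supply and transport lie near it. In the list on ornithine and arginine supply 5 of 11 were detected, with a median level of 0.346 TPM. The highest were Ass1, which makes argininosuccinate on the way to arginine (284 ± 14.6 TPM), Oat, ornithine aminotransferase (221 ± 5.77), Aldh18a1, which makes the precursor of ornithine and proline from glutamate (154 ± 6.46), and Slc7a1, an arginine carrier (111 ± 3.61). Both arginases, which make ornithine from arginine, were at or near the floor: Arg1 had 2, 2, 2 and 0 counts and Arg2 had 0, 0, 0 and 2. Otc, Agmat, Azin2 and Slc7a2 were not detected either. In the same libraries Odc1, which uses ornithine, ranked 34.

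Of the genes that supply S-adenosylmethionine and salvage the methylthioadenosine left by Srm and Sms, 9 of 10 were detected, with a median of 72.9 TPM. The highest were Mat2a, which makes S-adenosylmethionine (429 ± 7.97 TPM), Got1, an aminotransferase that can close the salvage route (219 ± 6.36), Ahcy, which clears S-adenosylhomocysteine (206 ± 14.9), and Mtap, the first salvage enzyme (120 ± 3.40). Mat1a, the liver form of the synthetase, had 0 counts. Shared windows made up 72.1% of Ahcy and 38.9% of Ass1, and what this took from their levels, if anything, was not measured.

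Spermidine is the donor for hypusine, a modified lysine in the translation factor eIF5A. All 4 genes of that list were detected, with a median of 90.6 TPM. Eif5a itself was at 2947 ± 77.1 TPM and ranked 21. The modifying enzymes Dhps, which transfers the spermidine part, and Dohh, which hydroxylates it, were at 88.3 ± 0.802 and 92.9 ± 4.43 TPM, and the second factor gene Eif5a2 was at 30.0 ± 0.606. Dohh shared 65.0% of its windows with other transcripts.

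Of 12 genes linked to polyamine transport 5 were detected, with a median of 0.541 TPM. Slc3a2, the heavy chain of amino acid carriers (177 ± 5.35 TPM), and Atp13a3, a polyamine-transporting ATPase (167 ± 7.94), were the highest. Atp13a2, its lysosomal relative, was at 19.9 ± 1.12 and the glypican Gpc1 at 7.81 ± 1.01 TPM. Slc12a8 reached 1 TPM in 2 of 4 libraries, and Atp13a4, Atp13a5, Slc18b1, Slc22a2, Slc22a3 and Slc47a1 did not reach it in any.

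Of 6 other antizyme and catabolic genes 2 were detected, with a median of 0.132 TPM. They were the amine oxidase genes Aoc2 (13.8 ± 0.797 TPM) and Aoc1 (13.3 ± 1.89), the latter encoding diamine oxidase. The germ-cell antizyme Oaz3 and the amine oxidase Aoc3 were not detected, and Sat2 and Satl1, relatives of Sat1, had 0 counts, which allows up to 3 counts in each library.

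Among transcription factors known to act on Odc1, 5 of 6 were detected, with a median of 23.5 TPM. Myc, an activator of Odc1, was at 434 ± 14.6 TPM and ranked 340, and its partner Max was at 91.0 ± 2.48. The antagonists Mnt and Mxd1 were at 28.5 ± 1.52 and 18.5 ± 1.77 TPM. Mycn was not detected.

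**Figure D5:**
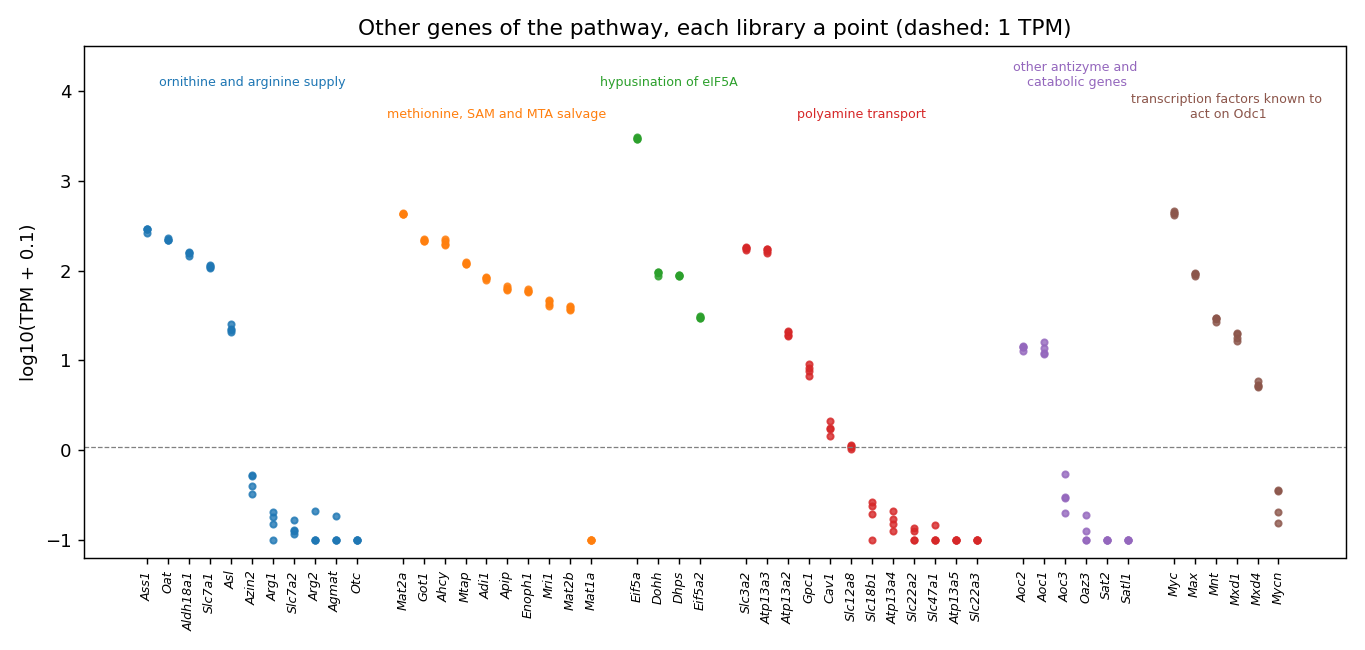
Log10 of TPM + 0.1 of the 49 other genes of the pathway, by list, with a point for each of the 4 libraries and a dashed line at 1 TPM. Eif5a is the highest, at a mean of 2947 TPM. In the arginine, transport and catabolic lists a few genes lie far above the line and most lie below it, with points at -1 for 0 counts.

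Library totals ran from 28555677 to 58104663 counts, and a floor of 3 counts equals 0.0516 to 0.105 CPM. The labelled cell type was checked by marker genes. All 7 Th17 markers, among them Il17a, Il17f and Cd4, reached 1 TPM in each library and summed to between 16274 and 16955 TPM. Of other cells, 0 of 5 markers of macrophages and monocytes were detected (summed 0.798 to 1.06 TPM, with Lyz2 at 0 counts), 0 of 4 of B cells (0 to 0.215, Ms4a1 at 0), 0 of 3 of CD8 T and NK cells (0 to 0.110, Klrb1c and Ncr1 at 0) and 0 of 3 of stroma and epithelium (0.516 to 1.02). In these bulk libraries fewer cells that express a gene and less RNA of it per cell cannot be told apart.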

How the data were processed

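RNA of 4 Th17 libraries was measured. The tables deposited by the authors hold unnormalized counts of fragments for each gene, per the file headers from featureCounts 1.4.6-p4 (paired ends both mapped, reverse-stranded option 2, GENCODE M13 models; mm10, per the labels), with exon lengths. Neither multi-mapping fragments nor fragments that overlap 2 genes were counted. The aligner's name was not given in the sources used here, apart from a hint in the names of alignments. The output name in the headers carries a culture time that the labels do not repeat.

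Here, TPM was computed from counts and exon length. Symbols, transcripts and windows came from GENCODE M21; 8 of 10 member identifiers also matched in version. Windows were searched in transcripts only, on either strand, and genes that overlap at the same place were not set aside. Pairs used a pseudocount of 0.1 and an exact sign-flip test. Variation used edgeR 4.0.16 (TMM, default filter, intercept only) in R 4.3.3, with DESeq2 1.42.0 as an alternative. In simulated counts of 12305 genes, 2-fold changes in 1 library were called in 64% (Poisson with the 2-fold requirement) and 84% (negative binomial). For 1.5-fold changes this was 10.2% and 44.9%, and for unchanged genes 1.09% and 0.0165%. Changes as small as those of the members were not simulated.

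Genes named are all members, the 4 highest and the undetected genes of each list, and copies with the most counts. Members and lists were chosen with earlier results of these data known; a marker and a transport gene are not reported here.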

Additional observations from a re-analysis of the deposited data

Results flagged for a closer look

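In groups of 4 libraries, a library stood apart when its gap to the nearest other was too large a part of the range by Dixon's criterion for 4 samples, which chance gives in about 1 in 20 groups. Of 40 genes and 13 pairs examined, 4 met this. The log2 ratio of Sat1 to Paox was 3.57 in replicate 2, above the other libraries. Oat was at 229.9 TPM in replicate 1 and Mat2a at 441 TPM in replicate 2, both above the others, and Aoc2 was at 12.6 TPM in replicate 4, below the others.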

How the results depend on the processing

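No paired analysis was possible because all libraries belong to 1 group. Odc1 made up 58.5% of the members' TPM, 56.3% as CPM, 52.1% with the longest coding transcript and 48.9% with shared windows also left out, and 58.1% to 58.7% without each replicate in turn. The length alternatives other than subtraction of 200 bases were chosen after the data were seen, as were the 50-base windows, with which 9 of 10 members shared sequence. As CPM, Azin1/Oaz1 turned to a log2 ratio of 1.08, which follows from dropping the lengths, and Sat1/Smox fell to 0.05 with replicate 1 on the other side. CPM moved the median level of all detected genes by a log2 value of 0.33. All 13 pairs kept their direction with a pseudocount of 1, with the other lengths and without each replicate. A threshold of 5 TPM left 29 of the 49 other pathway genes. Poisson calls over all genes were 216, and 486 with a 1.5-fold ratio, 4550 with no ratio (6 of them members), 1097 with no filter beyond 1 count, and 141 to 156 without each replicate, lowest without replicate 4. Negative binomial calls were 65, and 113 with no filter, 123 with the common dispersion, and 32 to 49 without each replicate (35 without replicate 1 and 32 without replicate 4). Except for the Poisson test with no ratio, 0 members were called in each of these. Depth limits Oaz2 and Paox most. What uncounted multi-mapping fragments took from Amd1, Oaz1, Sms, Paox and Odc1, if anything, was not measured.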
